A study of Mus musculus with 16 samples.

Results

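Metallothioneins and zinc transporters decide how much free metal a liver cell holds, and their transcripts were followed here through cadmium (Cd) exposure and selenium (Se) feeding. The group holds 8 genes, taken from the 57010 genes of the deposited table by their gene symbol: Mt1 and Mt2, Mtf1, and the Slc30a (ZnT) genes Slc30a1, Slc30a5, Slc30a7, Slc30a9 and Slc30a10. All 8 had a mean of at least 1 TPM (a transcript level scaled for transcript length and for the library's total) and were among the 11766 genes tested.

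RNA was sequenced from the livers of 16 adult male wild-type C57BL/6J mice, 4 in each of 4 groups. Control mice form the labels' control group. Cd mice were injected intraperitoneally with CdCl2 at 1.25 mg/kg each day over 7 days. Se mice ate a diet with 2 ppm selenomethionine (SeMet) for 3 months, and Cd+Se mice received that diet with the CdCl2 injections in its last 7 days. Whether control mice were given vehicle injections is not given in the sources used here.

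Metallothioneins are small cysteine-rich proteins that bind zinc, copper and Cd. Free zinc, which Cd displaces from protein, activates the transcription factor MTF-1, encoded by Mtf1, and MTF-1 binds metal response elements in front of Mt1, Mt2 and Slc30a1. Slc30a1 encodes ZnT1, which exports zinc across the plasma membrane. ZnT5 and ZnT7 carry zinc into the early secretory pathway, ZnT9 exports it from mitochondria, and SLC30A10 is best known as a manganese exporter of the liver and intestine. Liver Mt1 and Mt2 are also known to respond to glucocorticoids and to interleukin-6.

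Mt1 (ENSMUSG00000031765) lies on chr8:94179082-94180327 and Mt2 (ENSMUSG00000031762) on chr8:94172664-94173568, both on the plus strand of GRCm38, with 3 exons each and 5513 bases between them in the GENCODE M21 annotation. Slc30a1 (ENSMUSG00000037434) lies on chr1:191906767-191913247 and Slc30a10 (ENSMUSG00000026614) on chr1:185454848-185468762, both on the plus strand. The windows around the transcript starts of the 4 genes whose level passed the test in any comparison are printed because MTF-1 is known to bind such regions. Each holds 250 bases before and 50 bases from the start on, from RefSeq on GRCm38.p6, at chr8:94178839-94179138 for Mt1, chr8:94172368-94172667 for Mt2, chr1:191906531-191906830 for Slc30a1 and chr1:185454598-185454897 for Slc30a10, all on the plus strand. Capitals mark the core of the metal response element, searched as TGCACNC (core 1) and TGCGCNC (core 2) on both strands.
Mt1: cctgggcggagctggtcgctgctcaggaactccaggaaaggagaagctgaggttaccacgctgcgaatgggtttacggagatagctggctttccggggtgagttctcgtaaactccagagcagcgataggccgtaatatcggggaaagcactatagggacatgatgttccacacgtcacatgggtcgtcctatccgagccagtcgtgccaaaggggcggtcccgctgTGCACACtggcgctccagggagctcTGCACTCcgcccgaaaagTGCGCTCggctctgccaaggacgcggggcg
Mt2: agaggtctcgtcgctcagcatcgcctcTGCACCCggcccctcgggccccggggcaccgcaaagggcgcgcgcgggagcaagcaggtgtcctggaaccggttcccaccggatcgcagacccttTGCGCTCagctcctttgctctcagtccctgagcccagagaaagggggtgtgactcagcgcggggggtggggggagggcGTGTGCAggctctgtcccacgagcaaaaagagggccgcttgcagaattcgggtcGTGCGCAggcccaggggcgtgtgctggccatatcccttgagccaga
Slc30a1: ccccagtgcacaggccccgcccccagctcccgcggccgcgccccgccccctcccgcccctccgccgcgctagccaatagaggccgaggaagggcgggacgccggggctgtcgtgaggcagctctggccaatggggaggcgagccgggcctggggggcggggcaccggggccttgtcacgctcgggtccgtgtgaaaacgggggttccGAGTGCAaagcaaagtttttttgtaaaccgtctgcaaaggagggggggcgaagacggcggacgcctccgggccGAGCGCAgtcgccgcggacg
Slc30a10: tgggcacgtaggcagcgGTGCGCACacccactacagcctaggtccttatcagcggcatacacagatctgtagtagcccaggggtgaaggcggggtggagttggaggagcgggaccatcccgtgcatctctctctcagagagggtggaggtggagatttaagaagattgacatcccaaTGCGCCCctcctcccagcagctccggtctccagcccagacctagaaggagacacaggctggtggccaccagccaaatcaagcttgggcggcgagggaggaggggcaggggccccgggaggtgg

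The Mt1 window held 3 cores and the Mt2 window 4. In Mt1 all 3 ran along the gene's own strand and lay between 23 bases before and 26 bases after the RefSeq transcript start. In Mt2 the cores were spread more widely, with the first 223 bases before the start, and 2 of the 4 lay on the opposite strand. Slc30a1 held 2 cores, both on the opposite strand, 1 of them beginning 43 bases before the start. Slc30a10 held 3, of which 2 overlapped on opposite strands, so that they mark 1 place. Slc30a5 held 1 core, and none was found in the windows of Mtf1, Slc30a7 and Slc30a9. Of 32851 such windows of mouse genes, 25.7% held at least 1 core, 7.11% at least 2, 1.97% at least 3 and 0.518% at least 4. A match is a run of letters and not a measured binding site, and sequence outside the windows was not searched. Positions are counted from the RefSeq start, which for Mt2 lies upstream of the GENCODE start given above. Where transcription starts in these livers was not measured, so the distances need not hold for the start in use.

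**Figure D1:**
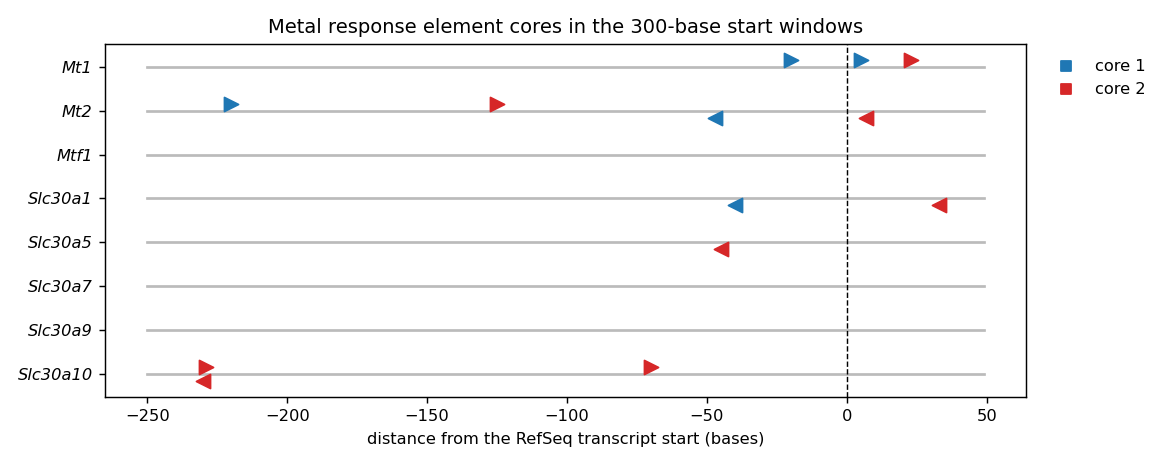
Positions of metal response element cores in the 300-base window of each of the 8 genes, in bases from the RefSeq transcript start (dashed line); triangles (blue, core 1; red, core 2) point along the strand that reads the core, with right-pointing ones above the line on the gene's own strand. The 3 cores of Mt1 sit close to the RefSeq start, those of Mt2 reach 223 bases upstream of it, and Mtf1, Slc30a7 and Slc30a9 have none in the window.

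The libraries were checked before the genes were compared. The median TPM of the tested genes was 5.41 in Cd mouse 5 and between 6.47 and 9.29 in the other 15 libraries, and mitochondrially encoded transcripts took 22.2% of TPM in that mouse against 12.8% to 18.0% in the others. Results that rest on Cd mouse 5 are therefore also given without it. The median log2 difference of all tested genes was -0.17 between Cd and control and 0.17 between Cd+Se and Cd, so the fold changes of single genes in these comparisons are read against that shift. Without Cd mouse 5 these medians were -0.09 and 0.09. The genes called in limma then numbered 2678 and 767, against 3619 and 1876 with that mouse, so the shares of all genes given below depend on it. Hepatocyte markers were abundant in every group, with a summed level of 37301 to 108101 TPM over the 16 livers.

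The first question was which of these genes responded to Cd alone. Mt1 and Mt2 rose and Slc30a10 fell, and the other 5 did not pass the test. In limma at a Benjamini-Hochberg adjusted p under 0.05, that is 3 of 8 genes, against 30.8% of all genes tested in this comparison. In one direction it is 2 of 8 higher, against 5.82% of all genes, and 1 of 8 lower, against 24.9%. The same 3 genes had groups that did not overlap, as did 34.2% of all genes. The median log2 fold change over the 8 genes was -0.12, beside -0.17 over all genes tested.

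Mt1 stood at 221, 50.9, 96.8 and 94.0 TPM in control mice 27, 28, 29 and 30. In Cd mice 1, 2, 5 and 6 it stood at 4899, 3178, 4179 and 4009 TPM. Every Cd liver exceeded every control liver by a wide margin, and control mouse 27 was the highest of its group. The mean was 116 ± 73.3 TPM in control and 4066 ± 707 TPM in Cd livers (SD, n = 4 each), a 35.2-fold ratio of mean TPM. On the log2(TPM + 1) scale Mt1 was higher by 5.30 (SE 0.48, adjusted p = 1.86e-05 in limma).

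Mt2, which encodes the other main liver metallothionein, followed the same order. Its levels were 150, 26.4, 49.5 and 50.6 TPM in the control mice and 4493, 3082, 3875 and 2433 TPM in the Cd mice, in the order used above. No Cd liver came near the control range. The means were 69.2 ± 55.1 and 3471 ± 901 TPM, a 50.2-fold ratio, and the log2 difference was 5.88 (SE 0.66, adjusted p = 5.74e-05). In rank among all genes, Mt1 moved from between 460 and 1446 in control livers to between 27 and 47 in Cd livers, and Mt2 from between 635 and 2487 to between 32 and 58.

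These values come from whole liver, where fewer cells of a type and less RNA per cell cannot be told apart. Markers of other cells moved in the same comparison. The summed neutrophil markers were 5.73 to 15.7 TPM in control and 31.0 to 39.6 TPM in Cd livers, and all 3 of the 5 listed markers that were tested rose. Those were S100a8, S100a9 and Retnlg, which made up almost all of the sum. Ly6g and Mpo, also listed, did not exceed 0.2 TPM in any control or Cd liver and were not tested. The summed Kupffer cell markers were 96.9 to 119 TPM in control and 30.7 to 51.9 TPM in Cd livers, and all 5 fell. Among hepatocyte markers Hnf4a fell and the other 4 did not pass, with sums of 56744 to 79061 TPM in control and 37301 to 63263 TPM in Cd livers. The summed markers of sinusoidal endothelium were 53.3 to 64.2 TPM in control and 33.6 to 50.4 TPM in Cd livers, without overlap, and 2 of 5 (Kdr and Stab2) fell. Of the stellate cell markers 1 of the 3 tested (Reln) fell, with sums of 88.5 to 133 and 72.9 to 120 TPM. Beside these marker counts, 5.82% of all genes tested were called higher and 24.9% lower. The part of these cell markers in the metallothionein result was not tested.

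The second question was whether the Se diet altered the response to Cd. In Cd+Se mice 13, 14, 15 and 16, Mt1 stood at 6070, 3621, 5880 and 3947 TPM, and in Se mice 39, 40, 41 and 44 at 64.3, 431, 334 and 215 TPM. The Cd+Se livers were all far above the Se livers, and within the Se group mouse 39 was the lowest. Mean Mt1 was 4880 ± 1274 TPM with Cd+Se and 261 ± 158 TPM with Se alone, an 18.7-fold ratio, and the log2 difference was 4.48 (SE 0.48, adjusted p = 0.000272 in limma).

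Mt2 stood at 5872, 3064, 5032 and 2765 TPM in the Cd+Se mice and at 19.6, 236, 306 and 107 TPM in the Se mice. Again the groups did not overlap, and Se mouse 39 was the lowest of all 16 livers. The means were 4183 ± 1510 and 167 ± 128 TPM, a 25-fold ratio, with a log2 difference of 5.14 (SE 0.66, adjusted p = 0.000994). Mt1 and Mt2 were the 2 of 8 genes called in this comparison, where 0.714% of all genes passed in either direction and 0.544% were higher. With only the compared groups fitted, the Mt2 difference was still 5.14 but did not pass (adjusted p = 0.0653). They were also the 2 whose groups did not overlap, beside 5.64% of all genes. Summed neutrophil markers were 5.10 to 9.30 TPM in Se and 44 to 73.2 TPM in Cd+Se livers, with Ly6g listed at 0 in all 4 Cd+Se livers, and Kupffer cell markers 52.5 to 130 and 26.4 to 59.4 TPM. All 3 tested neutrophil markers rose, 3 of 5 Kupffer cell markers fell, and 1 of 5 endothelial markers (Lyve1) rose, with endothelial sums of 40.1 to 62.8 and 37.8 to 72.6 TPM. Their part was not tested.

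Between the groups that received Cd, the metallothioneins did not separate. Mt1 differed between Cd+Se and Cd by 0.24 on the log2 scale (95% interval -0.78 to 1.26, adjusted p = 0.758) and Mt2 by 0.23 (-1.16 to 1.63, adjusted p = 0.834). Cd+Se mice 13 and 15 lay above every Cd liver in both genes and mice 14 and 16 lay within the Cd range. The intervals still hold a 2-fold difference in either direction for Mt2, so the data do not show that the levels were alike. Against control, which is shared with the Cd comparison, Cd+Se livers were higher by 5.55 for Mt1 (adjusted p = 4.08e-05) and by 6.12 for Mt2 (adjusted p = 0.000140).

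The third question was whether the Se diet alone changed basal metallothionein. Mean Mt1 was 2.26-fold and mean Mt2 2.42-fold that of control livers, but the groups overlapped, since control mouse 27 exceeded Se mice 39 and 44 in both genes. The log2 difference was 1.06 for Mt1 (95% interval 0.04 to 2.08, unadjusted p = 0.0417, adjusted p = 1) and 0.98 for Mt2 (-0.42 to 2.37, adjusted p = 1). In limma 0 of the 8 genes passed, as did 0% of all genes tested. An unadjusted p under 0.05 was reached by 1 of the 8, Mt1, and by 3.86% of all genes. None of the 8 had groups that did not overlap, beside 3.09% of all genes. Mt1 varied more among mice not given Cd, with a coefficient of variation of 63.4% in control and 60.6% in Se livers, against 17.4% in Cd and 26.1% in Cd+Se livers.

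**Figure D2:**
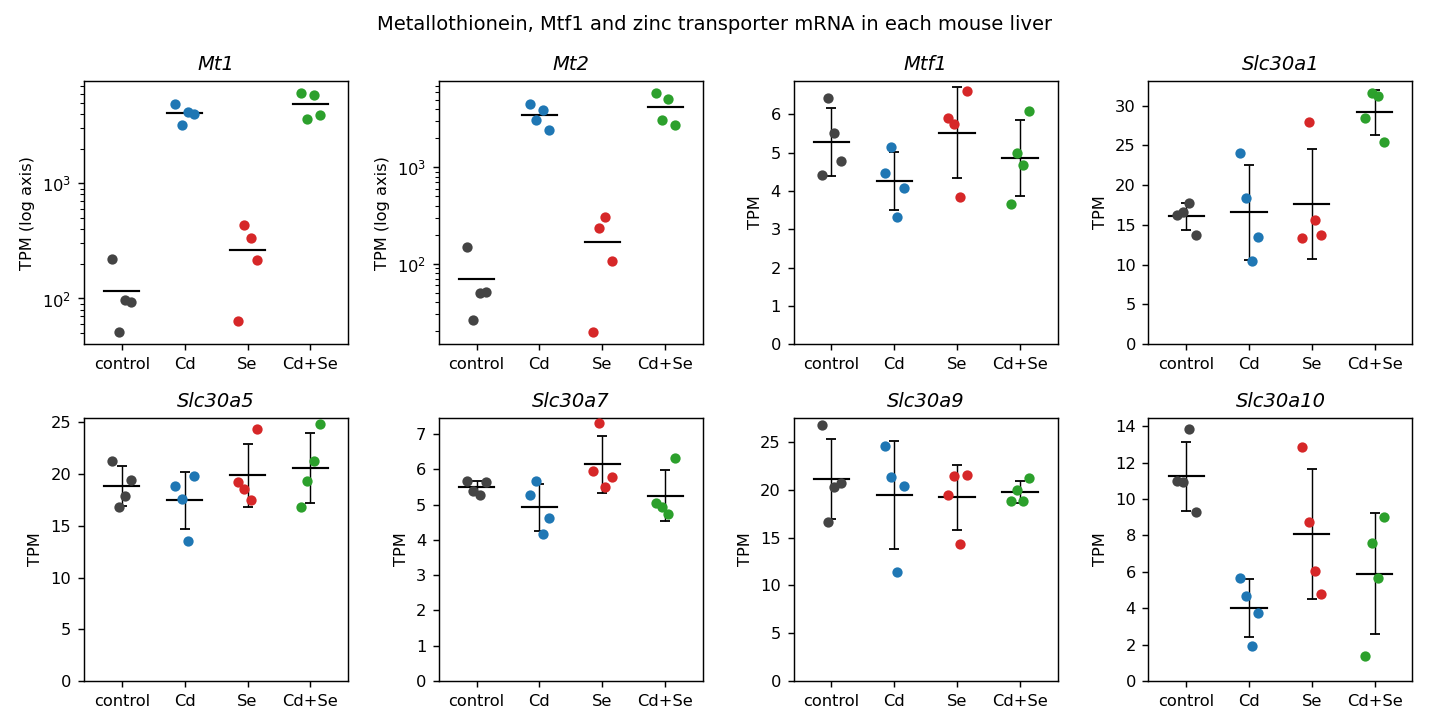
TPM of each of the 8 genes in each of the 16 livers by group (4 mice per group); points are mice, horizontal bars are means, and error bars are SD, left out on the log axes of Mt1 and Mt2. The 8 Cd-exposed livers lie between 2433 and 6070 TPM for both metallothioneins while the other 8 reach at most 431 TPM. By group mean, Slc30a1 is highest in Cd+Se and Slc30a10 in control livers, with a single Se liver reaching into each of these ranges.

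Taken as a pair, Mt1 and Mt2 made up 0.0185% of all TPM on average in control livers and 0.754% in Cd livers. In Cd+Se livers the sum reached 0.906%, with 1.19% in mouse 13, and in Se livers it was 0.0428%. The summed level was 40.8-fold higher in Cd than control livers and 21.2-fold higher in Cd+Se than Se livers, in 4 of 4 exposed mice each time. The exact two-sided permutation test gave p = 0.0286 for each, which is the smallest p that 4 mice against 4 allow, and an adjusted p of 0.0714 over 10 tests. Between Cd+Se and Cd the ratio was 1.2 (exact permutation p = 0.343).

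The balance of the pair also differed in number. Mt1 made up 59.6%, 65.8%, 66.2% and 65.0% of the sum in control mice and 52.2%, 50.8%, 51.9% and 62.2% in Cd mice. Of the Cd livers 3 lay below every control, and Cd mouse 6 lay within the control range. The mean share was 64.1% ± 3.10 in control and 54.3% ± 5.35 in Cd livers (exact permutation p = 0.0571, adjusted p = 0.114). It was 54.4% ± 3.29 in Cd+Se livers, a difference from control of -9.71 percentage points (exact permutation p = 0.0286, adjusted p = 0.0714), and 65.1% ± 10.05 in Se livers. No difference in share passed the adjustment. All Cd+Se livers, at 50.8% to 58.8%, lay below all control livers. The p of 0.0286 for that comparison is the smallest that 4 mice against 4 allow, so the adjusted p says little about it. How reads that match both of these related transcripts were divided is not given in the sources used here.

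**Figure D3:**
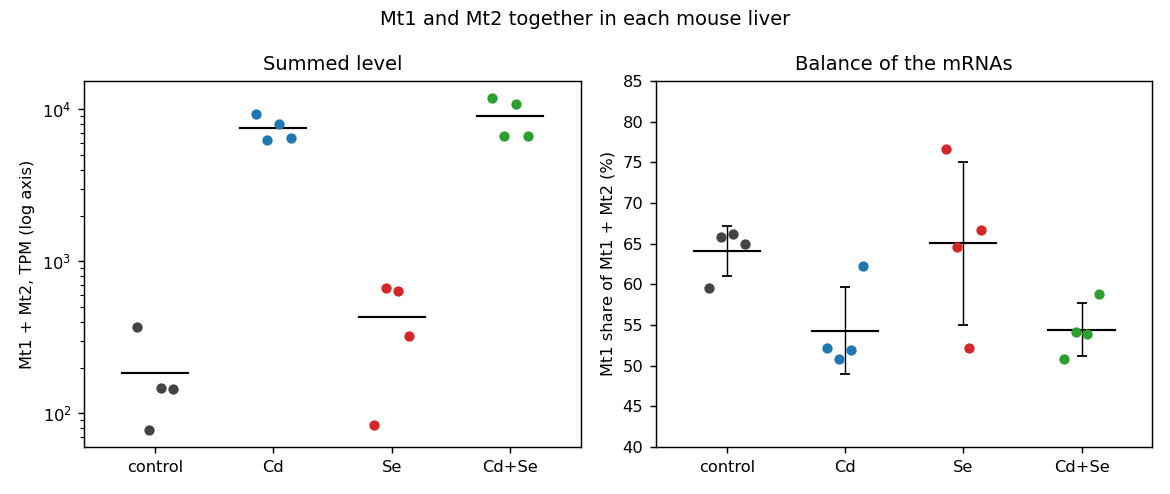
Left, summed Mt1 and Mt2 TPM in each liver (log axis); right, Mt1 as a percent of that sum, on an axis cut at 40% and 85%; points are mice, bars are means and error bars (right) are SD, n = 4 per group. The sum separates Cd-exposed from unexposed livers without overlap, while the Mt1 share centres near 54% in exposed and near 65% in unexposed livers, with overlap between Cd and control and between Cd+Se and Se.

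Mtf1, the sensor of the pathway, was low in every group. It stood at 4.41, 6.42, 5.51 and 4.79 TPM in control, at 4.47, 5.14, 3.33 and 4.07 TPM in Cd, at 5.91, 5.74, 3.84 and 6.60 TPM in Se and at 3.67, 4.99, 4.69 and 6.09 TPM in Cd+Se mice. All 4 groups overlapped. The log2 difference between Cd and control was -0.26 (95% interval -0.61 to 0.09, adjusted p = 0.248), and it did not pass in any other comparison. Values of mRNA carry no information on the activity of the MTF-1 protein.

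Slc30a1, the plasma membrane zinc exporter, had its highest mean in the mice given both agents. Its levels were 16.3, 16.6, 17.8 and 13.7 TPM in control mice and 24.0, 18.4, 10.4 and 13.5 TPM in Cd mice. Cd livers fell on both sides of the controls, with mouse 1 highest and mouse 5 lowest. The means were 16.1 ± 1.72 and 16.6 ± 5.94 TPM, with a log2 difference of -0.02 (95% interval -0.50 to 0.47, adjusted p = 0.967) whose sign turned when libraries were rescaled.

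In Cd+Se mice Slc30a1 stood at 28.4, 31.7, 31.2 and 25.5 TPM, a narrow range that lay above every Cd and every control liver. In Se mice it stood at 13.3, 27.9, 15.6 and 13.7 TPM, where mouse 40 alone reached into the Cd+Se range. Mean Slc30a1 was 29.2 ± 2.85 TPM in Cd+Se and 17.6 ± 6.92 TPM in Se livers. Ordered by mean, the groups ran control, Cd, Se and Cd+Se, and the lower 3 did not differ beyond their spread.

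Slc30a1 rose in Cd+Se over Cd livers by 0.84 on the log2 scale (SE 0.23, adjusted p = 0.0250), a 1.76-fold ratio of mean TPM and 0.67 above the median of all genes. It was the 1 gene of 8 called in this comparison, where 15.9% of all genes tested passed in either direction and 13.6% of all genes tested were higher, and the 1 of 8 whose groups did not overlap, beside 19.2% of all genes. Without Cd mouse 5 the difference was 0.65 and no longer passed (adjusted p = 0.0885), and it was also lost without Cd mouse 6 (0.0595), Cd+Se mouse 14 (0.0675) or Cd+Se mouse 15 (0.0531). With no filter (adjusted p = 0.0640) or with only the compared groups fitted (0.0734) it did not pass either, at the same difference of 0.84. Summed endothelial markers were 33.6 to 50.4 TPM in Cd and 37.8 to 72.6 TPM in Cd+Se livers, with 1 of 5 (Lyve1) higher, and summed Kupffer cell markers were 30.7 to 51.9 and 26.4 to 59.4 TPM, with 1 of 5 (Adgre1) higher by 0.78 on the log2 scale (adjusted p = 0.0259). Summed hepatocyte markers were 37301 to 63263 and 47336 to 68340 TPM, with 1 of 5 (Hnf4a) higher by 0.58 (adjusted p = 0.0239). Summed stellate cell markers were 72.9 to 120 and 60.8 to 170 TPM, and 0 of the 3 tested passed in limma, with 1 at an unadjusted p under 0.05. Summed neutrophil markers were 31.0 to 39.6 TPM in Cd and 44 to 73.2 TPM in Cd+Se livers. Among the sums given here for these groups, only that of neutrophils did not overlap. All 3 tested neutrophil markers had a positive difference, but 0 passed in limma and 0 had an unadjusted p under 0.05. The part of these markers was not tested.

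The comparison of Cd+Se with Se gave a log2 difference of 0.75 for Slc30a1 (SE 0.23, unadjusted p = 0.00474, adjusted p = 0.196), and that with control 0.82 (SE 0.23, unadjusted p = 0.00252, adjusted p = 0.148). Neither passed, although all 4 Cd+Se livers exceeded all 4 controls. Without Se mouse 40 the difference from Se was 0.99 and passed (adjusted p = 0.0348), and with libraries quantile normalized or centred on their medians both comparisons passed. The interaction term, which asks whether the Cd effect differed between diets, was 0.77 (95% interval 0.08 to 1.46, unadjusted p = 0.0311, adjusted p = 0.193). In limma 0 of 8 genes passed for the interaction, beside 1.04% of all genes, and Slc30a1 was the 1 with an unadjusted p under 0.05. Among all genes tested, 21.3% had an unadjusted p under 0.05 for the interaction. A different response to Cd under the Se diet was thus not shown for any of the 8.

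Slc30a10, known chiefly for manganese export, moved downward. It stood at 10.98, 10.93, 13.8 and 9.26 TPM in control mice and at 5.68, 4.69, 1.91 and 3.71 TPM in Cd mice, so that each Cd liver lay below each control. The means were 11.3 ± 1.90 and 3.998 ± 1.61 TPM, and the control mean was 2.81-fold that of Cd. The gene fell by 1.35 on the log2 scale (SE 0.38, adjusted p = 0.0154 in limma), and its difference was -1.17 relative to the median of all genes. Without Cd mouse 5, the lowest of the group, the difference was -1.11 and did not pass (adjusted p = 0.0601), while the groups remained apart.

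In Se mice Slc30a10 stood at 12.8, 8.76, 6.03 and 4.77 TPM and in Cd+Se mice at 1.35, 7.58, 5.64 and 9.02 TPM. Both groups spread widely, and Cd+Se mouse 13, which had the highest metallothionein sum, had the lowest Slc30a10. All 4 Cd+Se livers lay below all 4 controls, the nearest pair being 9.02 and 9.26 TPM. The log2 difference from control was -1.005 (95% interval -1.82 to -0.19, unadjusted p = 0.0186, adjusted p = 0.336), that from Se -0.51 (adjusted p = 0.709) and that from Cd 0.34 (adjusted p = 0.565). By mean the groups ran control, Se (8.10 TPM), Cd+Se (5.90 TPM) and Cd, and only the difference between control and Cd passed.

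Against control, Cd+Se livers thus had 2 of 8 genes called, both higher, beside 0.484% of all genes in either direction and 0.314% higher. In that comparison 4 of 8 genes, namely Mt1, Mt2, Slc30a1 and Slc30a10, had groups that did not overlap, beside 8.86% of all genes.

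**Figure D4:**
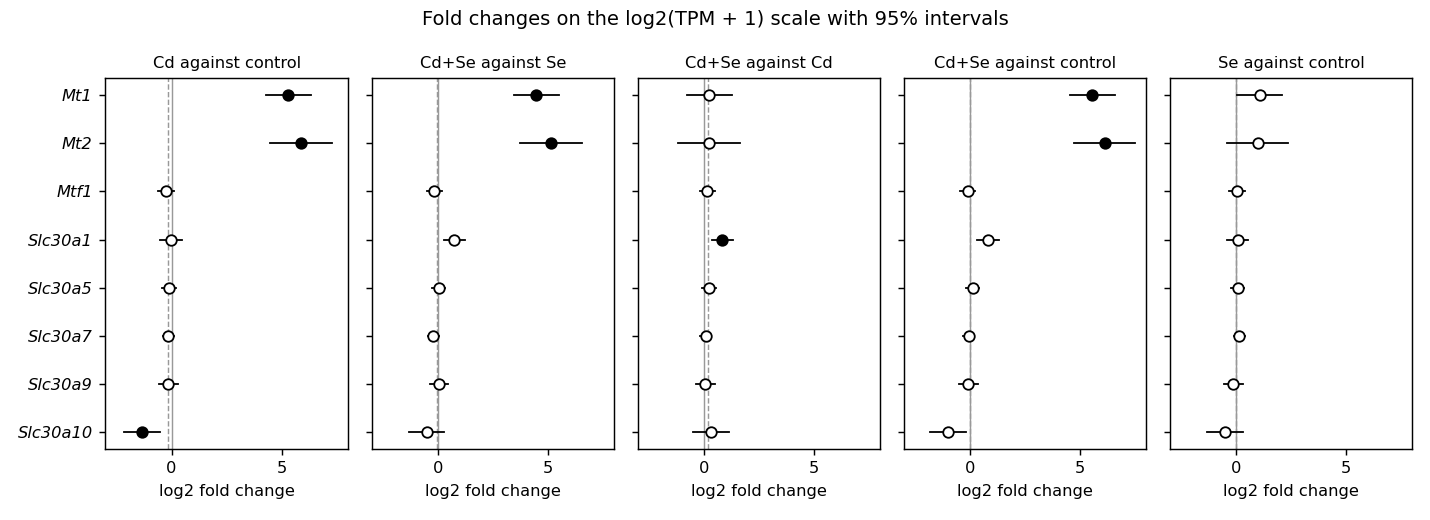
Log2 fold changes on the log2(TPM + 1) scale with 95% intervals from limma for the 8 genes in 5 comparisons (n = 4 mice per group); filled circles passed an adjusted p under 0.05 and dashed lines mark the median of all tested genes. Mt1 and Mt2 stand above 4 in the 3 comparisons of Cd-exposed with unexposed livers, Slc30a10 passes below 0 for Cd and Slc30a1 passes above 0 for Cd+Se against Cd.

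None of the organelle transporters passed the test. Slc30a5, a transporter of the early secretory pathway, ranged from 16.8 to 21.3 TPM in control, 13.6 to 19.9 in Cd, 17.5 to 24.4 in Se and 16.8 to 24.9 in Cd+Se livers. Slc30a7, which acts in the same compartment, ranged from 5.27 to 5.66, 4.16 to 5.66, 5.51 to 7.31 and 4.73 to 6.32 TPM in these groups. Slc30a9, the mitochondrial transporter, ranged from 16.6 to 26.8, 11.4 to 24.6, 14.3 to 21.5 and 18.9 to 21.3 TPM. The groups overlapped for all 3 genes in every comparison. For Cd against control the 95% intervals of the log2 difference were -0.42 to 0.19 for Slc30a5, -0.38 to 0.11 for Slc30a7 and -0.56 to 0.28 for Slc30a9. The lowest Cd liver for each of the 3 was mouse 5.

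The neighbours of these genes in metal handling gave further context. Mt3 and Mt4, which share the chromosome 8 cluster with Mt1 and Mt2, were listed at 0 in all 4 control livers and did not exceed 0.49 TPM in any liver. Of the other 7 metallothionein and ZnT genes only Slc30a4 and Slc30a6 were high enough to test, and neither passed for Cd against control. Slc30a4 passed for Cd+Se against Cd (log2 difference 0.54, adjusted p = 0.0413), from 2.44 ± 0.476 to 4.05 ± 1.001 TPM, and not once libraries were rescaled or Cd mouse 5 was left out. For Cd+Se against Cd, 13.6% of all genes were called higher. In all other comparisons 0 of these genes passed in limma, with 1 at an unadjusted p under 0.05 for Cd and 1 for the interaction. Among all genes tested, 42.5% and 21.3% reached that level.

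The ZIP (Slc39a) genes, whose products bring zinc into the cytosol, changed in both directions. Of 14 listed, 11 were tested, and in Cd livers 1 rose and 5 fell, beside 5.82% of all genes called higher and 24.9% lower. The median log2 fold change was -0.32 beside -0.17 over all genes. Slc39a14, an importer of zinc, iron and manganese in hepatocytes, stood at 79.6 to 95.7 TPM in control and 34.9 to 54.8 TPM in Cd livers (log2 difference -0.84, adjusted p = 0.00541). Slc39a7, which releases zinc from the endoplasmic reticulum, fell by 0.79 and Slc39a9 by 0.66. The one that rose, Slc39a2, went from 0.633 ± 0.102 to 1.90 ± 0.410 TPM (log2 difference 0.82, adjusted p = 0.00186). With libraries centred or quantile normalized the counts were 2 higher and 4 lower, and without Cd mouse 5 they were 1 and 4.

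In Cd+Se against Cd, 4 of the 11 ZIP genes rose and 1 fell, beside 13.6% of all genes called higher and 2.35% lower. Slc39a14 was higher by 0.85 (adjusted p = 0.0147), at 71.4 to 136 TPM, and Slc39a2 was lower by 0.61 (adjusted p = 0.0212). Centring the libraries left 2 higher and 1 lower, and without Cd mouse 5 there was 1 each way, Slc39a14 and Slc39a2. In the other comparisons 0 ZIP genes passed in limma. An unadjusted p under 0.05 was reached by 1 gene between Cd+Se and Se, 1 between Cd+Se and control, 0 between Se and control and 5 for the interaction. The shares of all genes at that level were 10.9%, 10.9%, 3.86% and 21.3%, in the same order.

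Among 4 tested of 6 other genes reported as MTF-1 targets, Selenow, a selenoprotein, rose in Cd livers by 0.46 (adjusted p = 0.00841) and Csrp1 rose in Cd+Se over Cd by 0.65 (adjusted p = 0.0462). Of all genes tested, 5.82% were called higher in Cd livers and 13.6% in Cd+Se over Cd livers. The Csrp1 call was lost with rescaled libraries and without Cd mouse 5. In the other comparisons 0 of the 4 passed in limma. An unadjusted p under 0.05 was reached by 2 for Cd+Se against Se, 2 against control, 0 for Se alone and 2 for the interaction. The matching shares of all genes are those given for the ZIP genes. With quantile normalization Selenow was also called higher in Cd+Se than control livers. With centring Gclc was also called higher in Cd livers, and Selenow was called lower in Cd+Se than Cd livers. Of 8 tested stress genes that Cd is known to induce, Hmox1 (heme oxygenase 1) and Gclm (a subunit of the enzyme that starts glutathione synthesis) rose in Cd livers, by 0.81 (adjusted p = 0.0211) and 0.63 (adjusted p = 0.0205). Beside the 2 of 8, 5.82% of all genes were called higher. Of the 8, 5 had a positive difference. Mean Txnrd1 was 50.4 TPM in control and 37.7 TPM in Cd livers, and mean Hspa1b 11.5 and 8.07 TPM, and neither passed. Hmox1 went on to 42.5 ± 16.8 TPM in Cd+Se livers from 18.0 ± 1.64 TPM in Cd livers (log2 difference 1.11, adjusted p = 0.0122), and it was also higher than in Se livers by 1.91 (adjusted p = 0.000994) and than in control livers by 1.92 (adjusted p = 0.000921). Among all genes tested, 13.6% were called higher against Cd, 0.544% against Se and 0.314% against control. The order of group means of Hmox1, control, Se, Cd and Cd+Se, was that of Mt1 and Mt2, for which the step from Cd to Cd+Se did not pass. For Se alone and for the interaction 0 stress genes passed in limma, with 3 and 2 at an unadjusted p under 0.05. Among all genes, 3.86% and 21.3% reached that level.

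Genes that respond to the other known inducers of metallothionein were counted as well. Of 9 glucocorticoid-responsive genes 1 passed in Cd livers, Fkbp5, a chaperone of the glucocorticoid receptor, which fell by 1.28 (adjusted p = 0.0221) and was higher by 1.48 in Cd+Se than Cd livers (adjusted p = 0.0216). Both calls were lost without Cd mouse 5, and 0 of the 9 passed in limma in the other 4 comparisons, where at most 2 had an unadjusted p under 0.05. Those 2 were for the interaction, where 21.3% of all genes reached that level. In Cd against control 6 of the 9 had a positive difference, with a median of 0.25 beside -0.17 over all genes. Per1 was called higher there once libraries were quantile normalized or centred. Beside the 1 of 9 that fell, 24.9% of all genes were called lower in Cd livers. Of 9 genes that respond to interleukin-6 and STAT3, 3 rose in Cd livers: Lcn2 (log2 difference 3.21, adjusted p = 0.0112), Saa2 (3.36, adjusted p = 0.0496) and Hp (0.82, adjusted p = 0.0284), all coding for acute-phase proteins. Of these, Lcn2 was still called without Cd mouse 5. With quantile normalization 2 of the 9 were called higher, Hp and Lcn2, and with centring 5, with Orm1 and Orm2 joining the 3. Beside the 3 of 9, 5.82% of all genes tested were called higher in Cd livers. The list did not move as 1 in Cd against control, where 6 of the 9 had a positive difference. Hamp (-1.18, adjusted p = 0.124 in limma), Fgg (-0.18) and Socs3 (-0.03) were lower and did not pass. In the other 5 comparisons 0 of the 9 passed in limma, with 4 at an unadjusted p under 0.05 for Cd+Se against Se and 6 for Cd+Se against control. Among all genes tested, 10.9% reached that level against Se and 10.9% against control. The median log2 fold change of this list was 0.90 in Cd against control, 0.93 in Cd+Se against Se and 0.02 in Cd+Se against Cd.

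**Figure D5:**
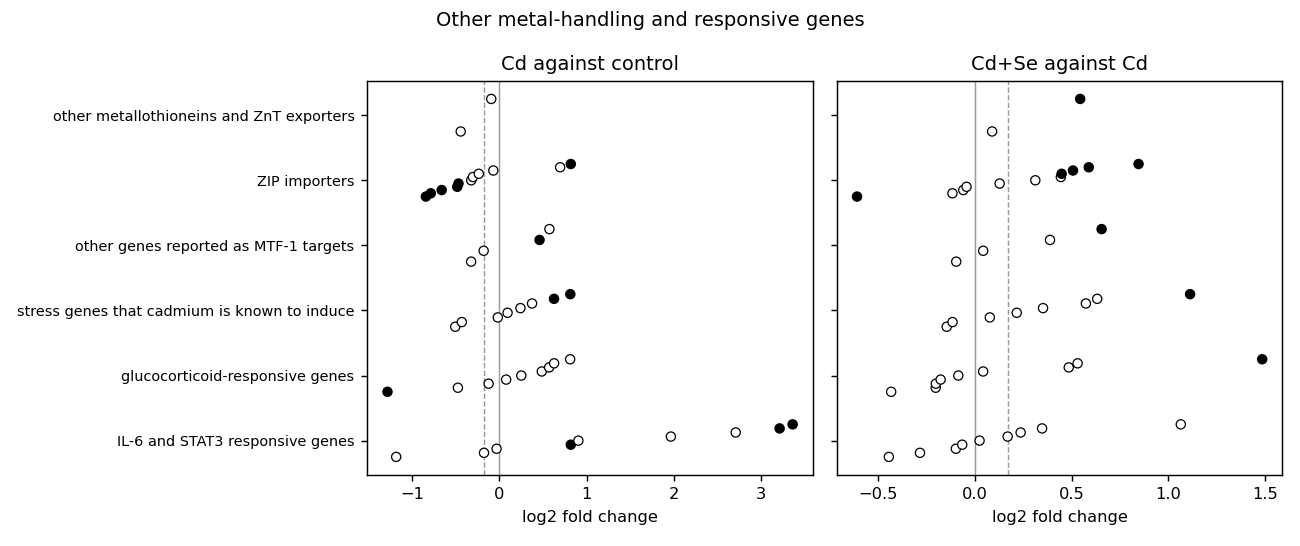
Log2 fold changes of genes in 6 lists (rows) for Cd against control (left) and Cd+Se against Cd (right), from limma with 4 mice per group; each circle is a gene, filled where the adjusted p is under 0.05, and dashed lines mark the median of all tested genes. For Cd, filled circles lie on both sides of 0 among ZIP importers and only above 0 among interleukin-6 and STAT3 responsive genes, where 3 pass.

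The genes whose pattern over the 16 livers was most like the mean log2 level of Mt1 and Mt2 were Saa3 (Pearson r = 0.954), the long noncoding RNA Gm45774 (0.936), Tmem176a (0.915), S100a8 (0.904) and S100a9 (0.902). These r values describe livers that share groups and carry no test. Saa3, an acute-phase gene, stood at 11.02 to 15.1 TPM in control, 131 to 216 in Cd, 9.25 to 42.3 in Se and 176 to 488 TPM in Cd+Se livers. Gm45774 stood at 0.13 to 0.53, 11.9 to 39.9, 0.14 to 1.26 and 4.52 to 40.4 TPM. Both separated exposed from unexposed livers without overlap. They were picked for likeness to Mt1 and Mt2, which separate the same livers, so this is no separate result. S100a8 and S100a9 are also on the list of neutrophil markers.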

How the data were processed

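Liver RNA of 16 mice was extracted with TRIzol, poly(A)-selected and sequenced on the NovaSeq platform, per the labels. The authors deposited 1 table of TPM for 57010 genes, and the submitters' processing notes name fastp, HISAT2 and StringTie without versions. They also name build GRCh38, a human build, although all 57010 gene identifiers are mouse Ensembl identifiers, so the build is unsettled and coordinates come from GENCODE M21 and RefSeq on GRCm38. TPM keep no depth, so depth per library is unknown and precision rests on the 4 mice per group.

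Values were compared as log2(TPM + 1), which understates the change of low genes. The 11766 genes whose mean over all libraries reached 1 TPM were fitted in 1 model over 16 libraries with limma 3.58.1 in R 4.3.3, with an intensity trend in eBayes and Benjamini-Hochberg adjustment over all genes at 0.05. The sum and share of Mt1 and Mt2 were compared by an exact two-sided permutation test over 70 arrangements. Comparisons with control share the control mice, and those with Cd share the Cd mice. No source says whether mice shared cages or litters.

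The genes and lists were chosen with earlier results of these data known. Named in the text are the 8 genes, up to 4 genes of each list past the threshold, and the 5 genes most like Mt1 and Mt2 by Pearson r. Some list genes that did not pass are also named, mainly where they went the other way. Alternatives were another pseudocount, filter, scaling, spread model, threshold, gene set or sample set, and leaving out each mouse. Promoter windows came from RefSeq and matched all 8 genes by symbol.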

Additional observations from a re-analysis of the deposited data

Results flagged for a closer look

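Of 36 sets of 4 values (8 genes and the Mt1 share, in 4 groups), 2 had a mouse far from the other 3, where chance alone would give about 1.8 at 1 in 20. In the Se group, mouse 40 had 27.9 TPM of Slc30a1 while the others had 13.3 to 15.6 TPM, a gap of 0.844 of the whole range. In the Cd group, Mt1 made up 62.2% of the metallothionein sum in mouse 6 and 50.8% to 52.2% in the others, a gap of 0.878 of the range.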

How the results depend on the processing

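Depth is unknown and each group has 4 mice, so small differences in the low genes Mtf1, Slc30a7 and Slc30a10 are poorly bounded. The rise of Mt1 and Mt2 in Cd against control and Cd+Se against control passed under every alternative run. With only the compared groups in the fit, Mt2 missed the threshold in Cd+Se against Se (adjusted p = 0.0653) at an unchanged difference of 5.14, leaving 1 gene called, Mt1. For Cd+Se against Cd, 0 genes were called with no filter, with only the compared groups, or when an absolute log2 difference of 1 was also required. Leaving out mice gave 0 to 1 there, 2 to 3 for Cd against control and 2 to 3 for Cd+Se against Se. Slc30a1 passed for Cd+Se against control with quantile normalization (adjusted p = 0.0236), centring (0.0265) or only the compared groups (0.0277), and for Cd+Se against Se with quantile normalization (0.0302) or centring (0.0367). The causes were not tested.

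The differences that changed sign were all uncalled. With quantile normalization and with centring they were, for Cd against control, 0.154 and 0.205 (Slc30a1), 0.054 and 0.108 (Slc30a5), 0.0877 and 0.0826 (Slc30a7), and 0.0185 and 0.0774 (Slc30a9). For Cd+Se against Cd they were -0.0594 and -0.0408 (Mtf1), -0.132 and -0.115 (Slc30a7), and -0.0843 and -0.126 (Slc30a9). For the interaction they were -0.0898 and -0.0760 (Mtf1), and -0.0301 with centring (Slc30a5).

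Leaving out each mouse in turn gave these ranges for differences that changed sign, all uncalled. For Cd against control they were -0.206 to 0.171 (Slc30a1) and -0.267 to 0.0809 (Slc30a9). For Cd+Se against Se they were -0.0497 to 0.139 (Slc30a5) and -0.0740 to 0.111 (Slc30a9). Slc30a9 ranged from -0.155 to 0.193 for Cd+Se against Cd and from -0.178 to 0.0417 for Cd+Se against control. For Se against control they were -0.0353 to 0.182 (Mtf1), -0.164 to 0.174 (Slc30a1) and -0.0270 to 0.127 (Slc30a5). For the interaction they were -0.0281 to 0.213 (Mtf1), -0.131 to 0.0217 (Slc30a7) and -0.0277 to 0.320 (Slc30a9). The Mt1 share difference ranged from -1.30 to 2.82 points for Cd+Se against Cd and from -2.95 to 5.20 points for Se against control. No paired analysis was possible because the groups share no mouse numbers.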

Other observations

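Slc39a10, a zinc importer reported to be repressed by MTF-1, was under the filter on low values and was not tested. It stood at 1 to 1.29 TPM in control and 0.35 to 0.85 TPM in Cd livers. In Se livers it stood at 0.61 to 1.16 TPM and in Cd+Se livers at 0.44 to 0.64 TPM. Both Cd-exposed groups lay below the controls, while Cd+Se livers overlapped with Se livers. Full separation from the controls, in either direction, was seen in 34.2% of tested genes with Cd and in 8.86% with Cd+Se. Whether MTF-1 had a part in these low values was not tested.

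Within groups, the genes whose deviations from the group mean followed those of Mt1 and Mt2 most closely over the 16 livers were the long noncoding RNA C330022C24Rik (Pearson r = 0.867), Slc16a5 (0.848), Dgcr6 (0.843), the complement gene C4b (0.842) and Isca2 (0.842). These are the highest of 11766 genes and carry no test.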
